A study of Mus musculus with 16 samples.

Results

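Granulocyte-monocyte progenitors (GMP) were set against megakaryocyte-erythroid progenitors (MEP), with 2 libraries of each among the 16 libraries of 8 populations. All cells were sorted from bone marrow of WT mice. The libraries were chosen by the cell type label. Small RNA was prepared from 1 to 3 µg of total RNA and selected on a gel for products of 170 to 370 bp, which favours RNAs of snoRNA length. The sort used a lineage cocktail and antibodies that included c-Kit, CD34 and CD16/32, and the exact gate of each population is not given in the sources used here. No label ties a library to a mouse, so p-values describe library-to-library spread, which may be only technical. Fewer cells of a type and less RNA per cell cannot be told apart in such bulk samples.

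GMP and MEP are the sister progenitors that arise from the common myeloid progenitor (CMP). GMP give rise to neutrophils and monocytes, and MEP to red cells and platelets. Most small nucleolar RNAs (snoRNAs) are cut from introns of host genes. C/D snoRNAs guide 2′-O-methylation of ribosomal RNA and H/ACA snoRNAs guide pseudouridylation, and a few take part in cutting the rRNA precursor instead. microRNAs (miRNAs) guide silencing of mRNAs through a short seed near their 5′ end.

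The GMP libraries held 14164782 and 14520518 counts, and the MEP libraries 23013702 and 16005872. C/D snoRNAs took 90.9% and 88.1% of the counts in GMP, against 89.2% and 89.5% in MEP. The 45S pre-rRNA interval took 6.57% and 8.22% in GMP, against 7.81% and 8.44% in MEP. H/ACA snoRNAs took 1.05% and 1.29% in GMP, against 0.804% and 0.824% in MEP, so the groups did not overlap. snRNAs took 0.474% and 0.468% in GMP, against 0.4001% and 0.388% in MEP, again without overlap. With 2 libraries a group an exact permutation test cannot go below p = 0.333, so these shares are given as values. miRNAs took 0.794% and 1.75% in GMP, against 1.61% and 0.711% in MEP. GMP library 2 and MEP library 1 therefore stood apart from the other library of their own population in miRNA share, and miRNAs are given apart from the other classes.

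Differences were tested with edgeR's quasi-likelihood test across all 16 libraries, on counts scaled by the trimmed mean of M values (TMM). Levels are CPM over the scaled library sizes, and "rose" or "fell" is used of features with a Benjamini-Hochberg adjusted p under 0.05 over all 749 features tested. Of these, 57 passed (7.61%), with 29 higher in GMP (3.87%) and 28 lower (3.74%). The libraries of the groups did not overlap for any of the 57, beside 292 of all 749 features (39%). Scaled by library totals the split was 52 higher and 27 lower, and by relative log expression (RLE) it was 8 higher and 12 lower. In all, 20 features passed under TMM, RLE and library totals, 8 higher and 12 lower in GMP. With the 4 GMP and MEP libraries alone and no replicate block, none passed in edgeR, with 72 at an unadjusted p under 0.05. That count depends on the model as well as on the libraries used: with a block for crossed library numbers, chosen after seeing the data, 70 passed in the same 4 libraries. The block follows the split in miRNA share seen in these libraries, so the 70 calls are no separate support. Most differences were modest: the median absolute log2 fold change of the 57 was 0.48, and 10 reached 1.

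**Figure D1:**
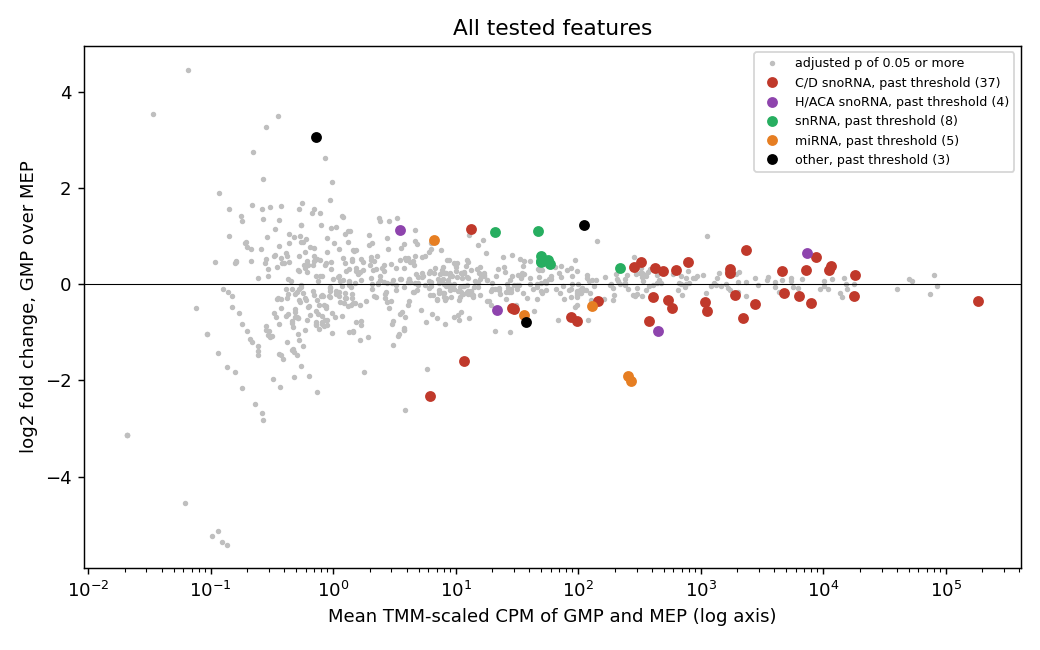
Each point is 1 of the 749 tested features, with the mean TMM-scaled CPM of GMP and MEP on a log x axis and the log2 fold change (GMP over MEP) on the y axis. Coloured points passed the threshold: 37 C/D snoRNAs, 4 H/ACA snoRNAs, 8 snRNAs, 5 intervals annotated as miRNA and 3 others.

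C/D snoRNAs held most of the calls. Of 166 tested, 16 rose and 21 fell in GMP (22.3% called, against 7.61% of all features), and their median log2 fold change was -0.01, beside 0.01 over all features. C/D snoRNAs are also the most abundant class, and the part of abundance in this share was not tested. The sequences below, from GENCODE M21 transcripts on GRCm38, are shown because their levels carry the C/D results. Capitals mark TGATG within the first 25 bases (box C) and CTGA within the last 25 bases (box D), on the transcript strand. These letters stood in both places in 138 of the 166 tested C/D snoRNAs (83.1%), a share partly fixed by the classing of unnamed snoRNAs on such boxes. Among the 94 classed by name alone, it was 70 (74.5%).
Snord34, chr7:45126601-45126670, minus strand: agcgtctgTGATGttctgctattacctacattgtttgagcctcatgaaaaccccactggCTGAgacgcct
Snord70, chr1:59691934-59692020, plus strand: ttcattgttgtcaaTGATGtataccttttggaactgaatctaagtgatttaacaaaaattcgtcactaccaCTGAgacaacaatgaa
Gm26224, chr1:161035394-161035473, plus strand: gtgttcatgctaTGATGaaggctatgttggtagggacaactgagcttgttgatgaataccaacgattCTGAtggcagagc
Snord80, chr1:161037601-161037681, plus strand: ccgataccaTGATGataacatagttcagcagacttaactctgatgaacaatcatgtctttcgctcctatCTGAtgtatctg

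The snoRNAs in introns of Rpl13a, a gene of the large ribosomal subunit, were lower in GMP. Snord34 had 1739 and 1673 CPM in GMP, against 2636 and 2881 CPM in MEP. Both GMP libraries lay below both MEP libraries (log2 fold change -0.69, SE 0.05, edgeR adjusted p = 1.28e-05). Snord32a had 2481 and 2328 CPM in GMP, against 3122 and 3234 CPM in MEP (log2 fold change -0.40, SE 0.05, edgeR adjusted p = 0.000268). Snord33 also fell, with a log2 fold change of -0.32. In all, 3 of the 4 Rpl13a snoRNAs fell and none rose, where 7.61% of all features and 22.3% of C/D snoRNAs were called. Snord35a had a log2 fold change of -0.44 and did not pass (edgeR adjusted p = 0.0667).

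Nop58 encodes a core protein of C/D snoRNA particles and hosts snoRNAs itself. Snord70 had 285 and 280 CPM in GMP, against 479 and 474 CPM in MEP (log2 fold change -0.76, SE 0.08, edgeR adjusted p = 0.000239). Snord11, from another intron, had 66.7 and 79.4 CPM in GMP, against 117 and 130.4 CPM in MEP, and fell by 0.76 on the log2 scale. The other Nop58 snoRNAs, Gm26293 and Gm26287, did not pass, at log2 fold changes of 0.10 and 0.61. Of the 4, 2 fell and none rose, beside the same 7.61% and 22.3%.

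Gas5, a non-coding host gene, gave calls in both directions. Gm26224, the most abundant C/D snoRNA of these named features, had 171548 and 151539 CPM in GMP, against 204907 and 206878 CPM in MEP (log2 fold change -0.35, SE 0.05, edgeR adjusted p = 0.00212). Without GMP replicate 2 its log2 fold change was -0.21. Gm23212 and Gm22357 fell as well, with log2 fold changes of -0.39 and -0.23. Snord80, further along the same host, had 11219.6 and 9609 CPM in GMP, against 6887 and 7093 CPM in MEP (log2 fold change 0.58, SE 0.07, edgeR adjusted p = 0.000425). A shorter annotated Snord80 interval overlaps it and also rose. Of 10 Gas5 intervals, 2 rose and 3 fell, and the 2 that rose are these overlapping Snord80 intervals. The calls compare with 7.61% of all features and 22.3% of C/D snoRNAs.

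Other host genes gave smaller sets. From 2410006H16Rik, Snord49b had 929 and 913 CPM in GMP, against 1288 and 1407 CPM in MEP (log2 fold change -0.55), and Snord65 fell by 0.25 on the log2 scale. Snord49a, of the same host, had a log2 fold change of 0.18 and did not pass. From Zfas1, Snord12 and Gm25878 rose, with log2 fold changes of 0.29 and 0.20, while Gm23201 did not pass at 0.05. Without GMP replicate 1 the value of Snord12 was 0.16. From 1810032O08Rik, Snord1b had 884 and 935 CPM in GMP, against 643 and 684 CPM in MEP (log2 fold change 0.46), and Snord1c rose by 0.34. Snord1b has 2 similar annotated copies, so reads may have been split among them. Snhg1 had 1 rise (Gm24453) and 1 fall (Gm25894, -0.25) among 8 snoRNAs. None of the 5 snoRNAs of Eif4a2, the 3 of Gnl3 or the 3 of Ncl passed in edgeR on TMM-scaled counts. Among 52 snoRNAs of ribosomal protein genes other than Rpl13a, 5 rose and 1 fell (11.5%, against 7.61% of all features and 22.3% of C/D snoRNAs), with a median log2 fold change of 0.07. Among the 53 host genes for which 2 or more snoRNAs were tested, 17 had a call, 2 had calls in both directions and 6 had 2 or more calls all in 1 direction. Beside these stand the 7.61% of all features and 22.3% of C/D snoRNAs called. Overlapping or similar intervals, such as those of Snord80, count separately here, and whether calls gather by host was not tested.

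**Figure D2:**
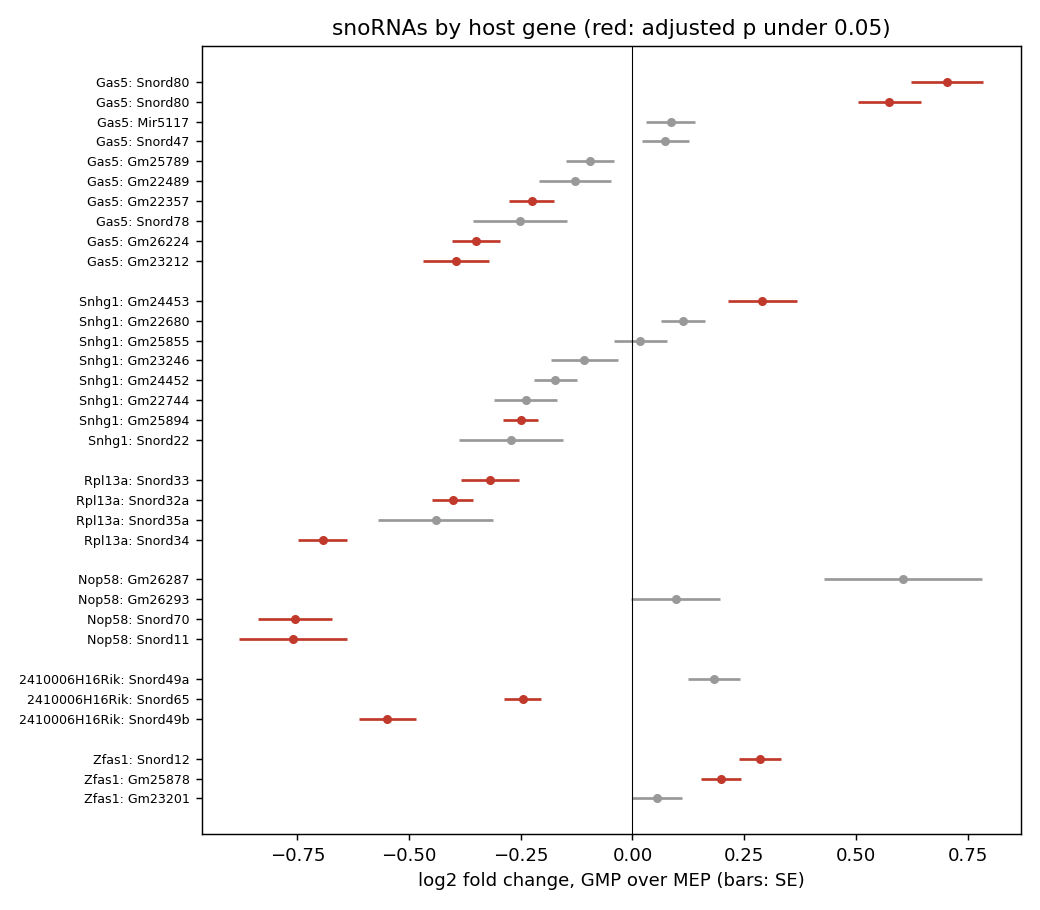
Log2 fold change (GMP over MEP, x axis) of each tested snoRNA of 6 host genes, with bars for the SE and red for an adjusted p under 0.05. The Rpl13a snoRNAs lie left of 0, whereas those of Gas5 lie on both sides, from -0.39 to 0.70.

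Further C/D snoRNAs outside these hosts were called. Gm23734, in an intron of Mgat5, had 18.1 and 18.8 CPM in GMP, against 9.53 and 7.02 CPM in MEP (log2 fold change 1.15, SE 0.18, edgeR adjusted p = 0.00212). Gm22059, in an intron of Med24, had 6.67 and 4.95 CPM in GMP, against 17.5 and 17.7 CPM in MEP (log2 fold change -1.60, SE 0.26). Of the abundant ones, Gm24299 of Taf1d and Gm22879 of Rpl7a rose by 0.37 and 0.30 (0.16 for Gm22879 without GMP replicate 1), and the less abundant Gm26457 of Eef1b2 rose by 0.47. Gm24463 and Mir3096, the second an interval with C/D boxes despite its name, fell by 0.49 each, and the call of Mir3096 was lost in 20 of 30 alternatives. Gm24463 has 4 similar annotated copies and Mir3096 has 1. Snord123, an intronic snoRNA of Snhg18, averaged below 10 CPM and was chosen after its values were seen. It had 1.91 and 2.16 CPM in GMP, against 10.6 and 9.90 CPM in MEP, a log2 fold change of -2.33 (SE 0.19, edgeR adjusted p = 1.28e-05). In CMP it stood at 18.3 and 17.1 CPM, above both. Its sequence is shown because this is the largest fall among the called snoRNAs.
Snord123, chr15:32241853-32241923, minus strand: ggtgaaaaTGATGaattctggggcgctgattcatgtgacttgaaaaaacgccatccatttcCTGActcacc

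H/ACA snoRNAs gave few calls although their summed share was higher in GMP. Of 101 tested, 2 rose and 2 fell (3.96%, against 7.61% of all features), with a median log2 fold change of 0.08. Gm25117, in an intron of the nucleosome assembly gene Nap1l1, had 8164 and 9883 CPM in GMP, against 5490.2 and 6078 CPM in MEP (log2 fold change 0.64, SE 0.10, edgeR adjusted p = 0.00242). The H/ACA class summed to 10092 and 11864 CPM in GMP, against 7668 and 8267 CPM in MEP, so this 1 snoRNA made up most of the class. Snora43 went the other way, with 278 and 325 CPM in GMP, against 600.3 and 580 CPM in MEP (log2 fold change -0.97, SE 0.14, edgeR adjusted p = 0.00124). CMP held only 64.7 and 70.8 CPM of Snora43, below both. Snora26, in an intron of Dancr, fell by 0.55, a call lost in 22 of 30 alternatives. The sequences of the first pair are shown as the strongest H/ACA rise and fall among the named features, with capitals for ACA placed 3 bases before the 3′ end, which 90 of the 101 tested H/ACA snoRNAs held (89.1%). Most of them were classed by that box, and among the 38 classed by name alone 32 held it (84.2%).
Gm25117, chr10:111481493-111481636, plus strand: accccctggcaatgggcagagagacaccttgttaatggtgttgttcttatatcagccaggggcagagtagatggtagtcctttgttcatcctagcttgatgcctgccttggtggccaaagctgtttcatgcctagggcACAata
Snora43, chr2:26637847-26637985, minus strand: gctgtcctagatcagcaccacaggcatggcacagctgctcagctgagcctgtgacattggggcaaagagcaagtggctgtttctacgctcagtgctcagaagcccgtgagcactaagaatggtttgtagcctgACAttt

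Of 19 tested intervals of snoRNAs that act in cutting the rRNA precursor, 1 fell and none rose (against 7.61% of all features called), with a median log2 fold change of -0.13 and 15 of the 19 below 0. Of the 19, 10 are U3 intervals that overlap in pairs and mostly have 11 similar copies, so they are not separate observations. The one that fell was Snord118 (U8), needed for maturation of the large subunit rRNAs, with 66.2 and 67.9 CPM in GMP, against 109 and 104 CPM in MEP (log2 fold change -0.67, SE 0.09, edgeR adjusted p = 0.000537). No U3 interval passed. Of these, Rnu3b4 had 73.3 and 128 CPM in GMP, against 89.0 and 112 CPM in MEP, so the groups overlapped. Snora73a (U17) differed by 0.02 on the log2 scale and Snord13 by -0.31, and neither passed. In the class-specific scaling described with the miRNAs, 2 of the 19 fell, Snord13 being the second (edgeR adjusted p = 0.0175). The 45S pre-rRNA interval had a log2 fold change of -0.19 and did not pass.

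Among housekeeping RNAs, 7SK RNA rose, with the largest rise of the features named by the rule. Rn7sk, which holds the transcription elongation factor P-TEFb in an inactive complex, had 170.5 and 144 CPM in GMP, against 66.6 and 67.8 CPM in MEP. It was 2.34-fold higher in GMP (log2 fold change 1.22, SE 0.10, edgeR adjusted p = 1.28e-05), and CMP lay between them at 91.0 and 95.8 CPM. It was the only 1 of 8 housekeeping small RNAs to pass. The signal recognition particle RNAs Rn7s1 and Rn7s2 had log2 fold changes of -0.07 and 0.20, and the Y RNAs Rny1 and Rny3 had 0.23 and -0.33.

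The snRNAs, annotated intervals that include the histone-processing U7 (Rnu7) beside the spliceosomal ones, were called in 1 direction, with 8 of 118 higher in GMP and none lower (6.78%, against 7.61% of all features). Of these, 5 were U1-length intervals, among them Rnu1a1, with 71.8 and 62.5 CPM in GMP, against 44.6 and 49.8 CPM in MEP (log2 fold change 0.51, edgeR adjusted p = 0.0285). Without GMP replicate 1 the values were 0.34 for Rnu1a1 and 0.27 for Rnu1b2, and their calls were lost in 18 and 20 of 29 alternatives. Rnu1a1 and Gm22634 have 25 near-identical copies and Rnu1b2 and Gm22614 have 20, so reads may have been split among them and the 5 are not separate observations. The U1-length intervals together summed to 678 and 619 CPM in GMP, against 473 and 507 CPM in MEP, without overlap. Outside that family, Gm23744 had 68.8 and 60.6 CPM in GMP, against 25.2 and 34.7 CPM in MEP (log2 fold change 1.11). Gm25106, inside Ikzf3, had 29.1 and 27.7 CPM in GMP, against 13.5 and 13.3 CPM in MEP (log2 fold change 1.08). None of 56 U6-length intervals passed in edgeR, nor did Rnu11, Rnu12 or Rnu7.

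Of 21 mitochondrial tRNAs, 1 fell and none rose (4.76%, against 7.61% of all features), with a median log2 fold change of -0.15. The methionine tRNA mt-Tm had 25.7 and 29.6 CPM in GMP, against 43.0 and 52.9 CPM in MEP (log2 fold change -0.79, SE 0.16, edgeR adjusted p = 0.00899). The mitochondrial rRNAs mt-Rnr1 and mt-Rnr2 had log2 fold changes of -0.43 and -0.21 and did not pass.

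**Figure D3:**
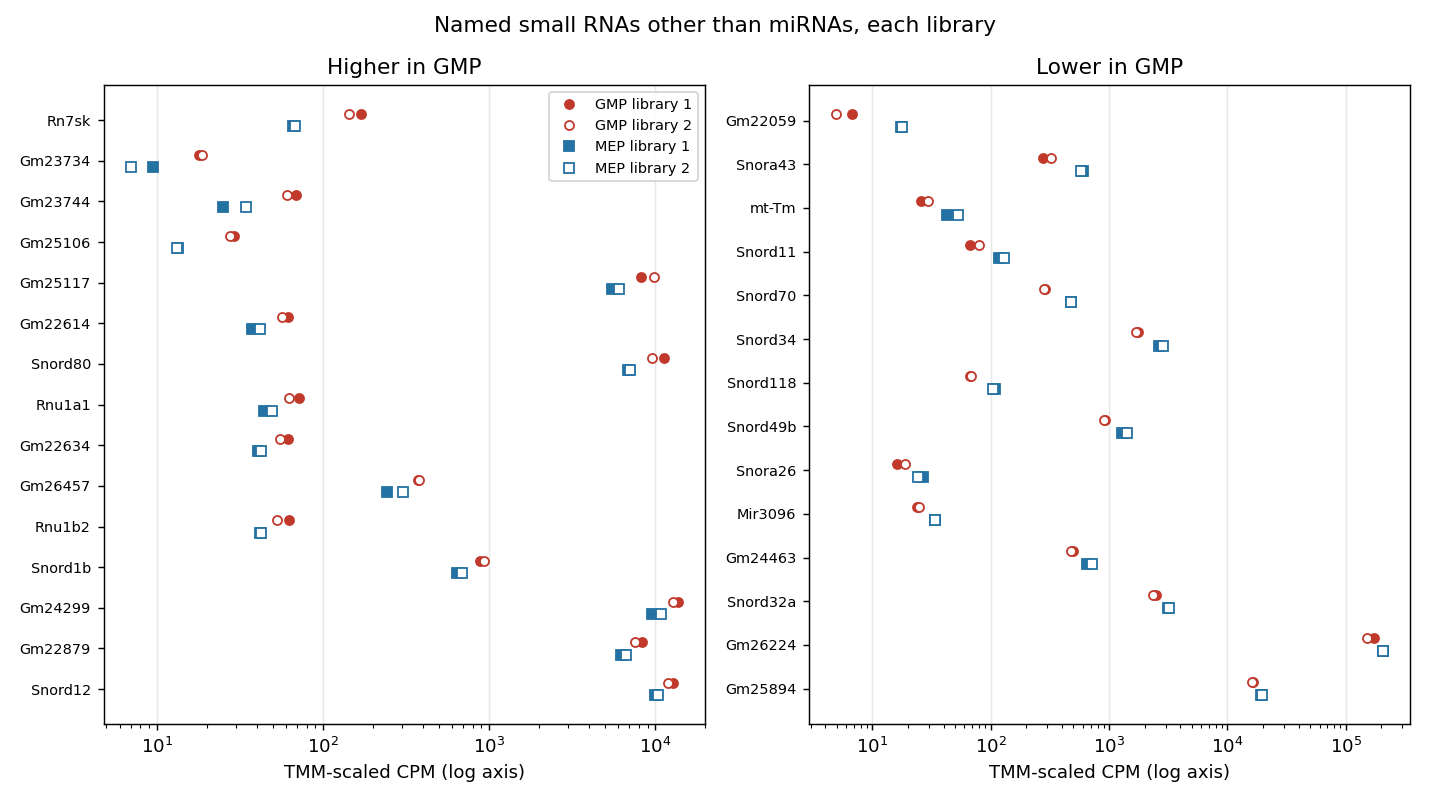
TMM-scaled CPM on a log x axis of each named feature other than miRNAs, in each GMP library (red circles) and each MEP library (blue squares). By the rule that chose them, the GMP and MEP libraries do not overlap, from Gm22059 at 4.95 to 17.7 CPM up to Gm26224 at 151539 to 206878 CPM.

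The snoRNAs of the imprinted Dlk1-Gtl2 locus on chromosome 12, which the study's title names, were barely detected. The 8 listed intervals summed to 6 and 6 counts in GMP, against 16 and 24 counts in MEP, and none passed the low-count filter. The 10 miRNAs listed from the locus summed to 2 and 0 counts in GMP, against 0 and 0 counts in MEP. None of these snoRNAs or miRNAs was tested, so no difference is given for the locus. Of 13 listed snoRNAs of the imprinted Snrpn-Ube3a locus, only Snord64 was tested, with a log2 fold change of -0.99 that did not pass (edgeR adjusted p = 0.266).

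Of 268 intervals annotated as miRNA, 1 rose and 4 fell (1.87%, against 7.61% of all features), and the named ones overlap or resemble other RNAs. Gm47276 had 87.4 and 127 CPM in GMP, against 452 and 411 CPM in MEP, a log2 fold change of -2.01 (SE 0.14, edgeR adjusted p = 9.24e-06). Gm47281 had a log2 fold change of -1.91. The sequence of Gm47276 matches part of 5S rRNA, and Gm47281 was grouped with it, so neither is read as a miRNA despite the annotation. Each of them has 72 near-identical copies, so they are not separate observations. CMP stood at 799 and 846 CPM of Gm47276, above both. Mir677 and mmu-mir-3535 fell by 0.65 and 0.45, and each overlaps another annotated interval. The call of Mir677 was lost in 19 of 28 alternatives. The fifth, Mir877, averaged below 10 CPM and rose by 0.92.

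None of the marker miRNAs passed in this fit, with 22 of 24 tested and a median log2 fold change of 0.09. The list summed to 2852 and 6372 CPM in GMP, against 6039 and 2341 CPM in MEP, so its level followed the miRNA share of each library. Mir223, the miRNA of granulocytes and monocytes, had 268 and 423 CPM in GMP, against 308 and 155 CPM in MEP, and the groups overlapped (edgeR adjusted p = 0.415). Mir486, an erythroid miRNA that lies opposite Mir3107, had 0.409 and 1.78 CPM in GMP, against 10.3 and 3.13 CPM in MEP (log2 fold change -2.61, edgeR adjusted p = 0.0640). Mir451a, of the red cell lineage, and Mir451b share 1 interval on opposite strands and cannot be told apart without strand. That interval had 66.0 and 116 CPM in GMP, against 180.5 and 124 CPM in MEP (edgeR adjusted p = 0.151). Mir125b-2 and Mir130a were at or near 0 in all 4 libraries.

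An alternative chosen after the data were seen scaled miRNAs over their own counts and all other RNAs over theirs, in 1 fit adjusted over the same 749 features. It compares the makeup of the counts in miRNA intervals, not their amount. In it, 114 features passed (15.2%), among them 56 of the 57 above, and of 200 miRNA intervals with their own scale 10 rose and 18 fell in GMP. Over all features 47 were higher in GMP (6.28%) and 67 lower (8.95%). Some features that did not pass above fell here: 2 of the 3 Ncl snoRNAs, the 2 mitochondrial rRNAs and Snord35a, so that all 4 Rpl13a snoRNAs fell. The snoRNAs of Eif4a2 and Gnl3 again did not pass. Levels from here to the end of the miRNA results are relative to the library's own miRNA counts (CPM of miRNA). Mir148a had 120349 and 143966 in GMP, against 76719 and 68707 in MEP (log2 fold change 0.86, SE 0.08, edgeR adjusted p = 1.01e-06). Mir223 had 36809 and 28321 in GMP, against 21828 and 25169 in MEP (log2 fold change 0.47, edgeR adjusted p = 0.00511). Common lymphoid progenitors (CLP) held 29045 and 28873 of Mir223, above GMP library 2 and both MEP libraries, and CMP held 17397 and 18150. Between mature Myeloid and Erythroid cells Mir223 did not pass in this scaling (log2 fold change 0.16, edgeR adjusted p = 0.272). Mir221 and Mir222, a clustered pair, rose by 0.43 and 0.93, and Mir23a and Mir23b rose by 0.70 and 0.84.

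Of the 3 intervals listed as erythroid markers only, 2 fell in the same scaling. In that fit, 15.2% of all features and 14% of the 200 miRNA intervals were called. Mir221 and Mir222, which rose, are listed as markers of erythroid cells and early progenitors. Of the 22 marker miRNAs tested, 3 rose and 5 fell. Mir486 had 56.2 and 119 in GMP, against 728 and 507 in MEP (log2 fold change -2.73, SE 0.40, edgeR adjusted p = 0.000164), from only 6 and 28 counts in GMP. The mature Erythroid libraries held 172 and 237 of Mir486, below both MEP libraries and below CMP (271 and 287), and the Myeloid libraries 72.9 and 83.2. The Mir451a and Mir451b interval had 9080.5 and 7738 in GMP, against 12786 and 20135 in MEP (log2 fold change -0.96, SE 0.19, edgeR adjusted p = 0.00167). A high level of it was not particular to MEP: CLP held 13031 and 12860 and mature Erythroid cells 14736 and 9683, whereas CMP held 2711 and 2737. Mir144, from the same cluster, had a log2 fold change of -1.12 and did not pass (edgeR adjusted p = 0.0663). Of 6 tested Mir30 intervals, 3 fell and none rose, where 15.2% of all features and 14% of miRNA intervals were called. Mir30b, Mir30a and Mir30c-2 fell by 1.12, 0.85 and 0.69. Mir30c-1, Mir30d and Mir30e/Mir30f did not pass, at -0.28, 0.13 and 0.05. Mir150 and Mir342, both listed as lymphoid markers, fell by 0.79 and 0.81, and none of the other lymphoid markers listed passed. Mir150 had 1067 and 789 in GMP and 1514 and 1644 in MEP, against 15139 and 14784 in T cells. Whether lymphocytes were carried over in the sort was not tested.

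The Mir146 genes moved in opposite directions in this scaling. Mir146b had 16832 and 16715 in GMP, against 10007 and 9418 in MEP (log2 fold change 0.79, SE 0.07, edgeR adjusted p = 4.91e-07). Mir146 (the gene of miR-146a) had 1329 and 1230.3 in GMP, against 2776 and 2598 in MEP (log2 fold change -1.08, SE 0.12, edgeR adjusted p = 6.89e-06). Matching the libraries by miRNA share makes much the same correction, and is no separate support. On TMM-scaled CPM, GMP library 1 minus MEP library 2 was 1.07 for Mir146b and -0.73 for Mir146, and GMP library 2 minus MEP library 1 was 0.82 and -1.09 (log2). Between libraries of unlike share the order turned: Mir146b had 122 CPM in GMP library 1 and 141 CPM in MEP library 1, and Mir146 had 18.4 CPM in GMP library 2 and 16.04 CPM in MEP library 2. The mature sequences below, from RefSeq on GRCm38.p6, are shown because these pairs share a seed, marked in capitals (bases 2 to 8). Counts are per hairpin, so the arm that was read is not known. Whether the reads came from mature miRNAs or from longer precursors was not tested.
mmu-miR-146a-5p: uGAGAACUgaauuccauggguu
mmu-miR-146b-5p: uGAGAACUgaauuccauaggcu
mmu-miR-221-3p: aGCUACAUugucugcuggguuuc
mmu-miR-222-3p: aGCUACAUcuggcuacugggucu
mmu-miR-30a-5p: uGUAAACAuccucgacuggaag
mmu-miR-30c-5p: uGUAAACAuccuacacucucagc
miR-146a and miR-146b carry the same seed and their hairpins went in opposite directions. The hairpins Mir221 and Mir222, whose products share a seed, both rose. The hairpins Mir30a and Mir30c-2, whose products share a seed, both fell. The product of Mir30c-1, which did not pass, is also miR-30c.

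**Figure D4:**
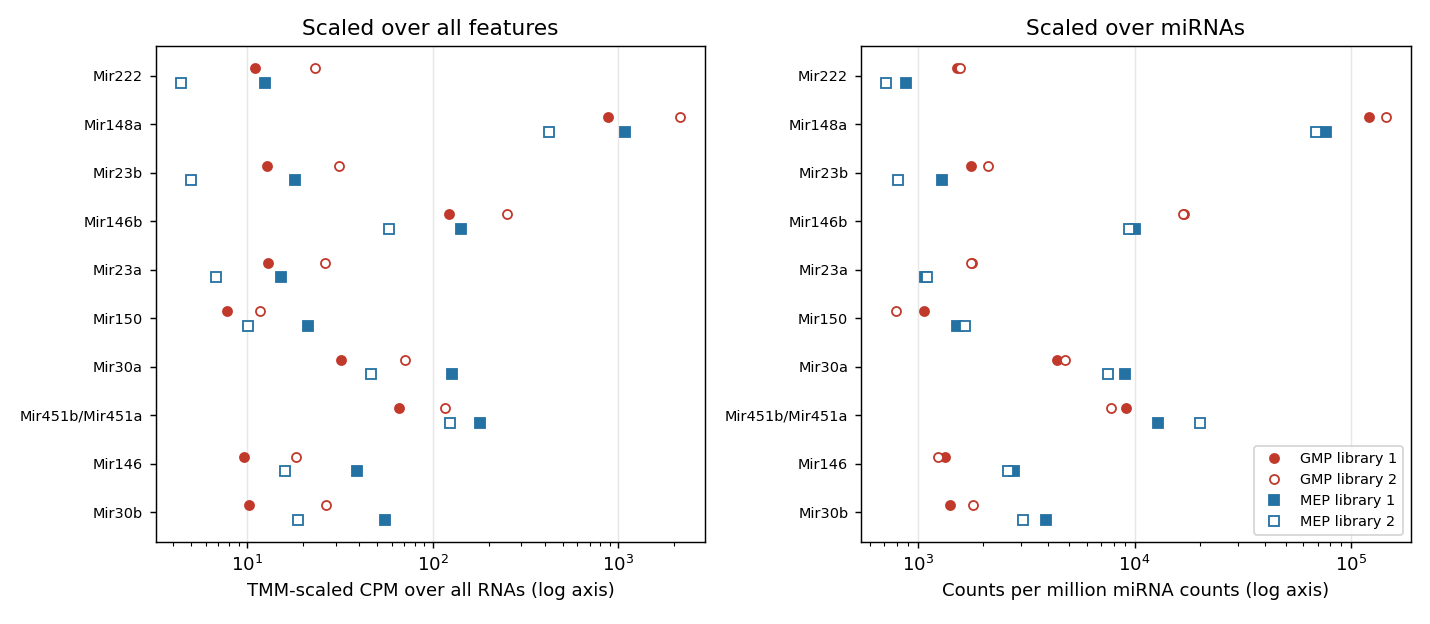
Levels of the 10 miRNAs named in the class-specific scaling, in each GMP library (red circles) and MEP library (blue squares), on log x axes. Scaled over all features (left) the groups overlap for all but the interval shared by Mir451a and Mir451b, and scaled over miRNAs (right) the GMP and MEP libraries are apart for each, as the naming rule requires.

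The same contrast was compared with that between mature Myeloid and Erythroid cells, which uses other libraries. There, 142 of the 749 features passed (19.0%). Of the 57 features called between GMP and MEP, 18 were also called in the same direction, 15 in the opposite direction and 24 were not called. The difference between the contrasts passed for 34 of the 57 (59.6%), against 9.21% of all features. The 57 were chosen on 1 of the 2 contrasts that enter this difference, so the shares are not independent. Snord70 fell in GMP and in Myeloid cells (log2 fold change -0.70 for Myeloid over Erythroid), and so did Gm26224 (-0.47). Snord118 fell in GMP but was higher in Myeloid cells (0.47), and Gm25117 rose in GMP but was lower in Myeloid cells (-0.42).

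**Figure D5:**
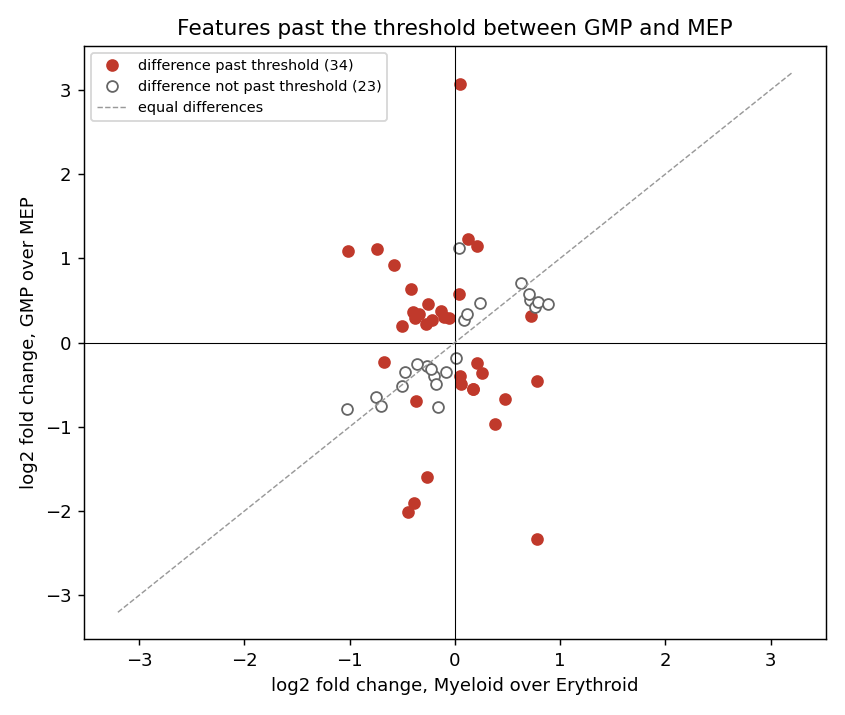
Log2 fold changes of the 57 features called between GMP and MEP (y axis) against those between Myeloid and Erythroid cells (x axis). Filled points are the 34 whose difference between the contrasts passed the threshold, and the dashed line marks equal differences.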

How the data were processed

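Small RNA-seq counts were taken from 16 libraries of 8 populations. The deposited values are raw counts per annotated interval, with no normalization by the authors, and an interval missing from a library was taken as 0. Trimmomatic 0.38, Bowtie2 2.3.4.1 and GRCm38 are named per the submitters' processing notes. The counting program, annotation and use of strand are not given in the sources used here, so overlapping or antisense intervals cannot be told apart. Of the values above 0, 89.5% to 91.9% were even in the GMP and MEP libraries. The reason for this, and its effect on the low-count filter and on calls from few counts, was not tested. Of 1885 intervals, 1884 were named by exact coordinates in GENCODE M21. snoRNAs without an informative name were classed by boxes and length. Similar copies are blastn 2.17.0 matches of at least 95% identity over 0.8 of the interval.

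edgeR 4.0.16 (R 4.3.3) kept 749 features with a minimum count of 10 by population, with 8 residual degrees of freedom over 16 libraries. The fit was tested on counts simulated from its own means and dispersions, with each library drawn independently. Such counts hold no shared split in miRNA share, so that test cannot show how the fit behaves under one. Named features other than miRNAs were the 12 largest rises and 12 largest falls past the threshold, averaging 10 CPM or more, with GMP and MEP libraries not overlapping, and the 5 smallest p each way at a mean of at least 1000 CPM. miRNAs were named 5 each way. Overlapping intervals counted once, and members of the marker, rRNA-processing, housekeeping and Dlk1-Gtl2 lists were added. Members and lists were chosen with earlier results of these data known. Alternatives were RLE, library totals, other filters and subsets, DESeq2 1.42.0, replicate blocks and leaving out each library. The class-specific scaling and crossed blocks were chosen after seeing the data.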

Additional observations from a re-analysis of the deposited data

Results flagged for a closer look

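Results are given here where the GMP minus MEP difference itself differed from the Myeloid minus Erythroid difference in edgeR's interaction test. Values in brackets are the difference of the 2 log2 fold changes, GMP minus MEP less Myeloid minus Erythroid.

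Above 0, and so with a GMP minus MEP value above the mature one, stood Rn7sk (1.10), Gm23734 (0.94), Gm23744 (1.85), Gm25106 (2.09), Gm25117 (1.06), Snord80 (0.54), Snord1b (0.71), Gm24299 (0.50), Snord12 (0.34) and Gm22879 (0.41). Below 0 stood Gm22059 (-1.33), Snora43 (-1.35), Snord34 (-0.32), Snord118 (-1.15), Snord49b (-0.72), Snora26 (-0.72), Gm24463 (-0.54), Snord32a (-0.45), Gm47276 (-1.57), Gm47281 (-1.52) and mmu-mir-3535 (-1.23).

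In the class-specific scaling chosen after seeing the data, values above 0 were those of Mir222 (1.35), Mir148a (1.07), Mir23b (0.98), Mir146b (0.57) and Mir451b/Mir451a (1.64). Values below 0 were those of Mir30b (-1.05), Mir146 (-1.43) and Mir150 (-1.04). The interval shared by Mir451a and Mir451b fell in GMP and was lower still in Myeloid cells relative to Erythroid cells (log2 fold change -2.60), which gives its value above 0.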

How the results depend on the processing

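The 57 calls became 20 under RLE, 29 of 1885 with no low-count filter, 11 of 469 without similar copies and overlaps, and 114 under the class-specific scaling. All 20 under RLE and all 11 without copies were among the 57. With the 4 GMP and MEP libraries only, the count was 0 in edgeR, with 72 at an unadjusted p under 0.05, and 0 with a replicate block, with 28 at an unadjusted p under 0.05. DESeq2 called 40 of 749. The replicate block over 16 libraries gave 54. Same-numbered GMP and MEP libraries deviated in opposite directions (correlation -0.80 over 320 features), so the numbers do not pair them. Crossed pairs, chosen after seeing the data, gave 70 calls in 4 libraries and 69 in 16. Leaving out 1 library at a time gave 21 to 63 calls, 30 without GMP replicate 1 and 23 without MEP replicate 2. Leaving out CMP replicate 1 or Myeloid replicate 1 gave 21 each. The 69 features whose contrasts differed became 26 with the 8 libraries of the populations compared, and 22 to 94 when 1 library was left out, with 22 without Myeloid replicate 1 and 24 without Erythroid replicate 1. In the TMM fit, not the class-specific one, leaving out 1 library moved the miRNAs widely: Mir30a from -1.38 to 0.15, reversing without MEP replicate 1, Mir30b from -1.80 to -0.03, Mir146 from -1.49 to -0.20, Mir150 from -1.13 to -0.06, Mir146b from 0.36 to 1.68, Mir148a from 0.28 to 1.83, Mir222 from 0.44 to 1.96, Mir23a from 0.29 to 1.53 and Mir23b from 0.19 to 2.14. The class-specific fit was not repeated without single libraries. None of the other 42 features chosen by size or p changed direction. Of 49 tested members of the marker, rRNA-processing and housekeeping lists, 26 changed sign in at least 1 alternative, none of them called, such as Rnu3b4 (-0.40 to 0.28) and Snora73a (-0.06 to 0.08). Of the 43 features, 9 lost their call in most alternatives: Gm22634, Gm22879, Gm25894, Mir3096, Mir677, Rnu1a1, Rnu1b2, Snora26 and Snord12. The 43 include the miRNAs named in the class-specific scaling, which had no call in the TMM fit to lose. Leaving out 1 library moved the share differences (GMP minus MEP, percentage points) from -1.25 to 1.60 for C/D snoRNAs, 0.232 to 0.474 for H/ACA snoRNAs, 0.0710 to 0.0833 for snRNAs, -0.368 to 0.590 for miRNAs and -1.55 to 0.0968 for the 45S interval.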
